A study of Homo sapiens with 6 samples.

Results

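The genes described here encode 10 amino acid transporters, SLC7A5, SLC7A1, SLC7A2, SLC7A6, SLC1A4, SLC1A5, SLC38A1, SLC38A2, SLC38A9 and SLC43A1, taken by symbol from the SLC7, SLC1, SLC38 and SLC43 carrier families out of 58735 genes in the expression table. The cystine carrier SLC7A11 was left out by that choice. Of the 10 genes, 9 had enough reads to be tested, among 15089 tested genes, and SLC7A2 did not. The samples were 3 RNA-seq libraries of PANC-1 cells given a control siRNA (si-NC, also labelled WT) and 3 of PANC-1 cells given siRNA against METTL16 (si-METTL16), an RNA methyltransferase that places N6-methyladenosine. PANC-1 is an established human line from a pancreatic ductal adenocarcinoma, and all 6 samples came from this single line. The study's methods describe stable transfection and biological triplicates but do not state which of the listed siRNAs was sequenced. The comparison asks how the transcripts of these carriers differed after METTL16 was silenced.

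Amino acids cross membranes through carriers of the solute carrier (SLC) families, which differ in the amino acids they take and in how transport is driven. Exchangers swap one amino acid for another, sodium-coupled carriers accumulate amino acids against their gradient, and facilitative carriers let them move down it. In tumour cells, glutamine brought in by sodium-coupled carriers can be traded for leucine by exchangers, and leucine and arginine are sensed at the lysosome by the machinery that activates the kinase mTORC1.

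METTL16 itself, the silenced gene (chr17:2405562-2511891), had 1546, 1641 and 1764 counts in the si-NC samples and 571, 528 and 627 in the si-METTL16 samples. The groups did not overlap, and METTL16 stood at 35.9% of its control level (log2 fold change -1.48, SE 0.07, adjusted p = 8.3e-05 by edgeR). Total counts were 15725298 to 18054436 per sample, so that 3 counts, the limit that a count of 0 allows, corresponded to 0.167 to 0.192 CPM (counts scaled to library size); this limit covers counting error only. Of the epithelial markers checked, 7 of 9 were detected well enough to test. In si-METTL16, 4 of them were lower, 0 higher and 3 not past an adjusted p of 0.05. By the same test 17.5% of all tested genes were lower and 18.4% higher. The log2 fold changes of these markers ran from -1.40 (KRT19, adjusted p = 0.00111 by edgeR) to 0.44. The duct gene CFTR had at most 1 count. Of 11 markers of other cell types, 2 could be tested and both were higher, COL1A1 by 1.27 and CD68 by 0.67 on the log2 scale (edgeR adjusted p = 9.4e-05 and 0.00928). The other 9 had at most 5 counts in si-NC and 7 in si-METTL16, with 3 and 5 of them at 0 in their group. The summed level of the 11 genes was 26.4 to 30.2 FPKM (fragments scaled to gene length and library size) in si-NC and 62.9 to 66.2 in si-METTL16. The part of these markers in the results below was not tested. In bulk RNA, fewer cells expressing a gene and less RNA per cell cannot be told apart.

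After METTL16 silencing SLC43A1 and SLC7A5 were lower among the 9 tested transporters, and 0 were higher. Genes were called at a Benjamini-Hochberg adjusted p below 0.05 in edgeR's quasi-likelihood test across all 15089 genes. Thus 2 of 9 members were called lower, where 17.5% of all tested genes were, and 0 of 9 were called higher, where 18.4% of all tested genes were. The SLC7A5 call was lost with some single samples left out, as given below. At an unadjusted p below 0.05 the count of higher members was also 0, and DESeq2 and limma voom likewise called 0 higher and 2 lower. The 3 si-METTL16 samples lay wholly below the 3 si-NC samples for 2 members (25.2% of all genes) and wholly above them for 0 (25.7% of all genes). Fold changes were above 0 for 4 members and below 0 for 5, with a median log2 fold change of -0.09 against -0.0045 over all tested genes.

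Promoters were searched on both strands for 2 short motifs, and 3 are shown, chosen after the values were seen: those of SLC7A5 and SLC43A1, the members called lower, and that of SLC7A1, the member with the highest fold change. The E-box (CACGTG) is bound by basic helix-loop-helix factors, and the core TGATGNAA of the C/EBP-ATF response element (CARE) is bound by ATF4, a factor induced when amino acids are short. The windows are 300 bases of the RefSeq GRCh38.p14 annotation, written along the gene in lower case with the motif in capitals. SLC7A5 at chr16:87869458-87869757 (minus strand) held an E-box 130 bases upstream of the start, SLC43A1 at chr11:57515653-57515952 (minus strand) held an E-box 112 bases upstream, and SLC7A1 at chr13:29595639-29595938 (minus strand) held a CARE core 7 bases after the start.
SLC7A5: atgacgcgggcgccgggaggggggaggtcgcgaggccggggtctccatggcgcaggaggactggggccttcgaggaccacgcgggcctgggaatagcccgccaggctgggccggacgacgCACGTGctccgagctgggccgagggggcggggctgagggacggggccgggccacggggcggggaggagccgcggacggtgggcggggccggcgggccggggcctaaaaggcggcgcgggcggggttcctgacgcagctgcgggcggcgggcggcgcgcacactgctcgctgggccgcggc
SLC43A1: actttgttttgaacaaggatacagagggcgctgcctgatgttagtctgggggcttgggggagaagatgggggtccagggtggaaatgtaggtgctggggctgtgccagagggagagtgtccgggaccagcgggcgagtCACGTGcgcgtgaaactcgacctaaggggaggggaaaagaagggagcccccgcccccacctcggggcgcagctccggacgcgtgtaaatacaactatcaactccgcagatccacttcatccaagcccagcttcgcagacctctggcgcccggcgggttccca
SLC7A1: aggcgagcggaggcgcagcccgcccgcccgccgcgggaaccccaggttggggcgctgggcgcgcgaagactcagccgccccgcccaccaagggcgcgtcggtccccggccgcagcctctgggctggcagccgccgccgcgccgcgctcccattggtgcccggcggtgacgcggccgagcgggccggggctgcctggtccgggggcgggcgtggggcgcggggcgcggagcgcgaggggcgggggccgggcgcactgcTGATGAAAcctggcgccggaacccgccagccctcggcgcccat
Promoter windows were found for 9 of the 10 members, several with more than 1 start. An E-box was present in at least 1 window of 3 of these 9 genes (SLC7A5, SLC43A1 and SLC1A5), and of 8.77% of 27305 genes (7.26% of 35116 windows). The CARE core was present for 4 of the 9 (SLC7A1, SLC1A4, SLC1A5 and SLC38A1), and for 4.46% of genes (3.62% of windows). The other window of SLC43A1 (chr11:57514860-57515159) held no E-box, and neither did the other windows of SLC1A5. The other windows of SLC1A4, SLC1A5 and SLC38A1 held no CARE core. A gene with more windows has more chances of a match, so the shares by gene are not adjusted for the number of windows. Of the 3 genes with an E-box, SLC7A5 and SLC43A1 were called lower and SLC1A5 was not called, and none of the 4 with a CARE core was called. Any link between motif and call was not tested. A match describes the letters in these windows and not a bound site, and motifs outside the 300 bases of a window were not searched.

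By level the carriers spanned the detectable range. In si-NC the mean FPKM was highest for SLC7A5 and decreased in the order SLC38A2, SLC38A1, SLC1A5, SLC7A1, SLC1A4, SLC7A6, SLC38A9, SLC43A1 and SLC7A2, an order that was the same in si-METTL16. SLC7A5 ranked 151st of the tested genes by FPKM (top 1.00%) and SLC43A1 ranked 12598th. Among neighbours, SLC7A5 (163 to 185 FPKM) lay above SLC38A2 (111 to 146 FPKM) in every si-NC sample, and SLC7A1 (15.4 to 19.1 FPKM) lay above SLC1A4 (9.68 to 13.7 FPKM). In si-METTL16 the ranges of SLC7A5 (118 to 155 FPKM) and SLC38A2 (95.9 to 147 FPKM) overlapped, although SLC7A5 was the higher within each sample. The place of the top pair depends on the gene length used. The deposited FPKM imply lengths of 1.08 to 3.00 times the merged exons of GENCODE v44, and per kilobase of merged exons SLC38A2 came first in si-NC at 285 CPM per kb against 191 for SLC7A5, and in si-METTL16 at 254 against 148; on that scale SLC7A1 and SLC1A4 overlapped in si-NC but not in si-METTL16, and the other 8 genes kept their place.

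**Figure D1:**
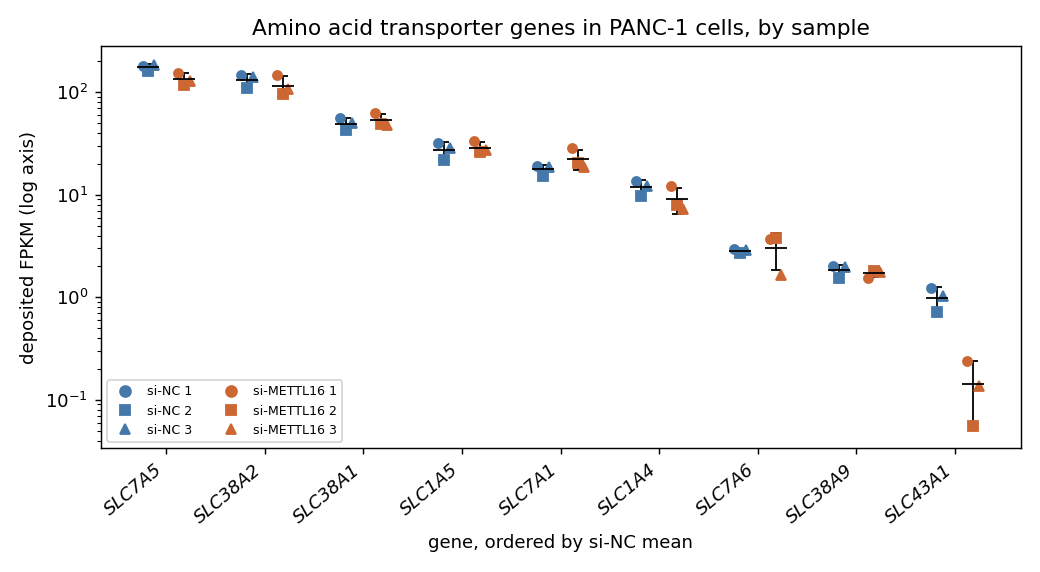
Deposited FPKM (log axis) of the 9 tested transporters, with 1 point per sample, the group mean as a horizontal line and 1 SD as the error bar (n = 3 per group); genes are ordered by their si-NC mean. The si-METTL16 points of SLC43A1 (0.0554 to 0.241 FPKM) and SLC7A5 (118 to 155 FPKM) lie below all si-NC points of the same gene, and the other genes overlap between groups.

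SLC7A5 encodes LAT1, the light chain of an exchanger that takes up leucine and other large neutral amino acids in return for intracellular ones such as glutamine. The gene (ENSG00000103257, chr16:87830023-87869488) had 181, 163 and 185 FPKM in si-NC and 155, 118 and 130 FPKM in si-METTL16. All si-METTL16 samples were below all si-NC samples, and si-METTL16 replicate 1 lay closest to the controls. The mean was 176 ± 11.8 FPKM in si-NC and 134 ± 19.2 FPKM in si-METTL16 (SD, n = 3 each). SLC7A5 thus stood at 77.4% of its control level (log2 fold change -0.37, SE 0.11, 95% interval -0.62 to -0.12, adjusted p = 0.0334 by edgeR). The call was lost without si-NC replicate 1 (adjusted p = 0.0858 by edgeR), si-NC replicate 3 (0.0972), si-METTL16 replicate 2 (0.0842) or si-METTL16 replicate 3 (0.0941), and without a filter on low genes (0.0542). Its pseudogene copies SLC7A5P1 and SLC7A5P2 held 92 and 38 counts over the 6 samples, against 81908 for SLC7A5.

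LAT1 reaches the plasma membrane bound to the glycoprotein heavy chain encoded by SLC3A2, which is not one of the 10 genes. SLC3A2 had 15.6, 13.2 and 15.8 FPKM in si-NC and 14.8, 13.0 and 12.9 FPKM in si-METTL16, and the groups overlapped. Its log2 fold change was -0.11 (SE 0.09, 95% interval -0.33 to 0.11, adjusted p = 0.382 by edgeR). Whether the fold changes of SLC7A5 and SLC3A2 differed from each other was not tested.

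SLC43A1 encodes LAT3, a facilitative carrier of leucine and other large neutral amino acids that needs no heavy chain. The gene (chr11:57484534-57515786) had 1.24, 0.712 and 1.03 FPKM in si-NC and 0.241, 0.0554 and 0.135 FPKM in si-METTL16, from 120, 69 and 103 counts against 23, 5 and 14. Every si-METTL16 sample was below every si-NC sample, with si-METTL16 replicate 2 the lowest. SLC43A1 stood at 14.9% of its control level (log2 fold change -2.75, SE 0.45, 95% interval -3.82 to -1.69, adjusted p = 0.00354 by edgeR). It stayed past the threshold in all 12 alternatives in which it could be tested, with log2 fold changes of -3.33 to -2.38, although with 5 to 23 counts per si-METTL16 sample the size of the change is less precise than for SLC7A5. In an alternative that required at least 10 counts in every sample, and in those that required a mean of 1 FPKM, it was not tested.

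SLC7A1 encodes CAT1, the main uptake route for arginine and lysine in many cells, which works without a heavy chain. The gene (chr13:29509410-29595688) had 19.1, 15.4 and 18.5 FPKM in si-NC and 28.3, 20.3 and 18.7 FPKM in si-METTL16. Replicate 1 of si-METTL16 was the highest sample and replicate 3 lay within the si-NC range, so that the groups overlapped. The log2 fold change was 0.37 (SE 0.17, 95% interval -0.02 to 0.76, adjusted p = 0.126 by edgeR), not past the threshold, and it was 0.16 without si-METTL16 replicate 1 and 0.27 to 0.49 without any other sample. SLC7A2, which encodes the related carrier CAT2, had 2, 3 and 4 counts in si-NC and 0, 0 and 4 in si-METTL16, at most 0.0161 FPKM, and no difference was detectable at this depth.

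SLC7A6 encodes y+LAT2, which exports arginine in exchange for neutral amino acids and sodium and also pairs with the SLC3A2 heavy chain. The gene (chr16:68264516-68301823) had 2.93, 2.68 and 2.88 FPKM in si-NC and 3.69, 3.78 and 1.64 FPKM in si-METTL16. The si-METTL16 samples stood on both sides of the controls: replicates 1 and 2 above all of them and replicate 3 below. The log2 fold change was 0.13 (SE 0.29, 95% interval -0.55 to 0.80, adjusted p = 0.763 by edgeR). Without si-METTL16 replicate 3 it was 0.43 (adjusted p = 0.00896 by edgeR), and without replicate 1 or replicate 2 of that group it was -0.05 or -0.06. SLC7A6OS, on the opposite strand, shares 3372 exon bases with SLC7A6 and differed by 0.17 on the log2 scale (adjusted p = 0.188 by edgeR). Strand use in counting was not given in the sources used here, so reads of the shared bases cannot be assigned to either gene.

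The SLC1 family members are sodium-dependent exchangers of small neutral amino acids. SLC1A4, which encodes ASCT1, a carrier of alanine, serine and cysteine (chr2:64988477-65023865), had 13.7, 9.68 and 12.2 FPKM in si-NC and 12.1, 7.996 and 7.20 FPKM in si-METTL16. Replicates 2 and 3 of si-METTL16 lay below all controls and replicate 1 within their range. The log2 fold change was -0.36 (SE 0.21, 95% interval -0.86 to 0.14, adjusted p = 0.224 by edgeR); without si-METTL16 replicate 1 it was -0.63 (adjusted p = 0.0272 by edgeR), and without si-METTL16 replicate 3 it was -0.22 (adjusted p = 0.486). SLC1A5, which encodes the glutamine carrier ASCT2 (chr19:46774883-46788594), had 31.9, 21.9 and 28.9 FPKM in si-NC and 33.2, 25.9 and 27.1 FPKM in si-METTL16. The groups overlapped almost entirely, and the log2 fold change was 0.08 (SE 0.15, 95% interval -0.28 to 0.44, adjusted p = 0.709 by edgeR). Its sign turned without si-NC replicate 2 or si-METTL16 replicate 1 (-0.06 and -0.04).

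SLC38A1 and SLC38A2 encode SNAT1 and SNAT2, sodium-coupled carriers that accumulate glutamine and other small neutral amino acids, and SNAT2 is known as a carrier that cells raise when amino acids run short. The genes lie next to each other at chr12:46183063-46270017 and chr12:46358189-46372867. SLC38A1 had 55.7, 43.0 and 49.9 FPKM in si-NC and 63.1, 49.3 and 47.7 FPKM in si-METTL16. SLC38A2 had 146, 111 and 142 FPKM in si-NC and 147, 95.9 and 107 FPKM in si-METTL16. Both genes overlapped between groups. The log2 fold change was 0.13 for SLC38A1 (SE 0.13, 95% interval -0.19 to 0.45, adjusted p = 0.49 by edgeR) and -0.17 for SLC38A2 (SE 0.17, 95% interval -0.58 to 0.24, adjusted p = 0.491 by edgeR). Without si-METTL16 replicate 1 that of SLC38A1 was -0.02 and that of SLC38A2 -0.38 (adjusted p = 0.0682 by edgeR), and with any other sample left out SLC38A2 ran from -0.29 (without si-NC replicate 2) to -0.05 (without si-METTL16 replicate 2).

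SLC38A9 differs from the others in place: it sits in the lysosomal membrane, where it senses arginine for mTORC1 and lets leucine and other amino acids out. The gene (chr5:55625845-55773194) had 2.01, 1.56 and 1.96 FPKM in si-NC and 1.55, 1.82 and 1.76 FPKM in si-METTL16, with overlapping groups. Its log2 fold change was -0.09 (SE 0.12, 95% interval -0.38 to 0.21, adjusted p = 0.621 by edgeR). For the 7 tested members that were not called, the intervals above give the sizes of change that these data leave possible.

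Pairs of related carriers were also set against each other within each sample, as the log2 ratio of their FPKM, which cancels what moves both genes of a pair in a sample. The ratio of SLC1A4 to SLC1A5 was -1.21, -1.18 and -1.25 in si-NC and -1.46, -1.70 and -1.91 in si-METTL16. All si-METTL16 ratios were lower, by 0.48 on average, and neither gene alone was called. The ratio of SLC38A1 to SLC38A2 was -1.39, -1.37 and -1.51 in si-NC and -1.22, -0.96 and -1.16 in si-METTL16, higher in every si-METTL16 sample by 0.31 on average. The ratio of SLC7A5 to SLC7A6 was 5.95, 5.92 and 6.002 in si-NC and 5.39, 4.96 and 6.31 in si-METTL16, and overlapped. The 3 ratios are given as a description and were not tested; the exact two-sided permutation test of 3 against 3 samples cannot go below p = 0.1. A ratio shows unequal change of its genes and not which of them changed. How often ratios of other gene pairs keep the groups apart was not worked out. Among all tested genes taken singly, si-METTL16 lay wholly below si-NC for 25.2% and wholly above for 25.7%.

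**Figure D2:**
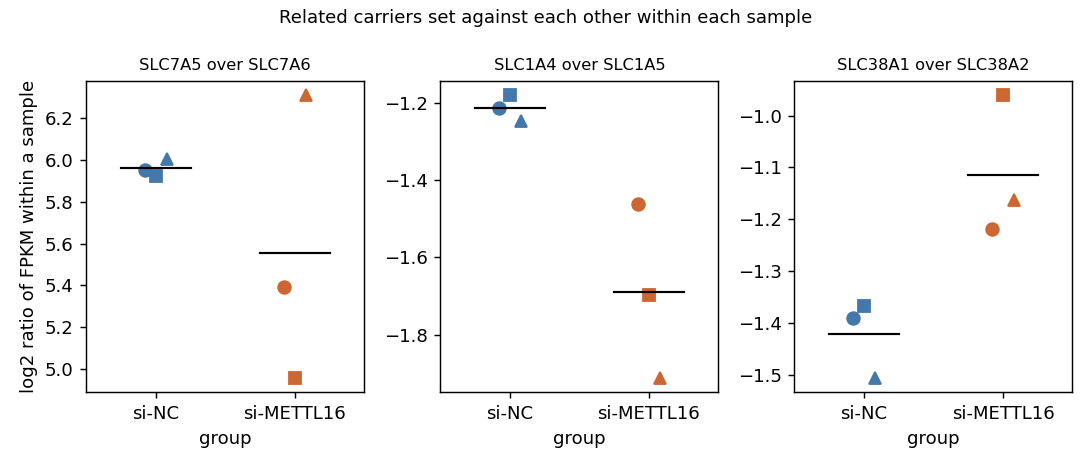
Log2 ratio of FPKM within each sample for 3 pairs of related carriers, with 1 point per sample, the replicate shown by its shape (circle 1, square 2, triangle 3) and the group mean as a line; each panel has its own vertical scale. SLC1A4 over SLC1A5 is lower and SLC38A1 over SLC38A2 higher in every si-METTL16 sample than in any si-NC sample, while SLC7A5 over SLC7A6 overlaps.

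Within each group the 9 tested members tended to rank the samples alike, a pattern seen after the values were known and given without a test. In si-NC, replicate 2 was the lowest sample for 9 of 9 tested members, whereas it was the lowest for 33.6% of all tested genes, and its median deviation from the group mean was -0.23 on the log2 CPM scale. Replicate 1 of si-NC was the highest of its group for 8 of 9 members (35.4% of all genes), with a median deviation of 0.147. Replicate 1 of si-METTL16 was the highest of its group for 7 of 9 members (32.6% of all genes), with a median deviation of 0.37. The exceptions in si-METTL16 were SLC7A6 and SLC38A9, for which replicate 2 was highest. Replicate 2 of si-NC was also lowest for 14 of 20 ATF4 response genes. Replicate 1 was highest of its group for 17 of those 20 in si-NC and for 15 in si-METTL16. The 17 other tested carriers described below shared this less. Among them si-NC replicate 2 was lowest for 9 (median deviation -0.0637) and si-NC replicate 1 highest for 10 (0.0648). There si-METTL16 replicate 1 was highest for 5 (29.4%), with a median deviation of -0.0352. The part of these libraries in the comparison was measured by leaving each out in turn, with the values given beside the genes whose call or sign changed.

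**Figure D3:**
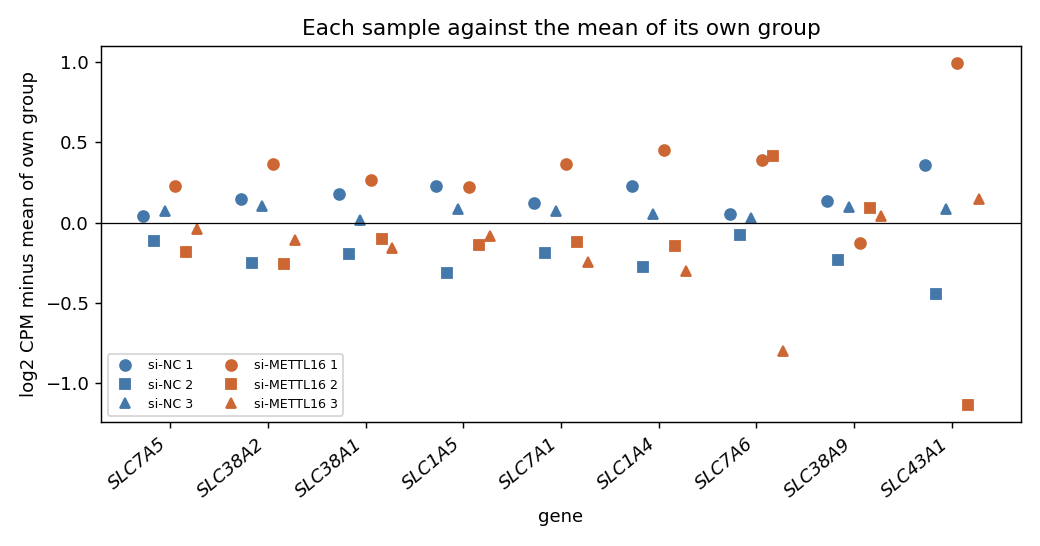
Deviation of each sample from the mean of its own group in log2 CPM, for the 9 tested transporters; colour gives the group and shape the replicate. The blue squares (si-NC replicate 2) are the lowest si-NC points for all 9 genes, and the orange circles (si-METTL16 replicate 1) are the highest si-METTL16 points for 7 of them.

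Beyond the 10 genes, 41 other SLC genes, listed as amino acid carriers from general knowledge, were examined, of which 17 could be tested. What each of them carries and where it sits in the cell was not checked. Of these 17, 6 were lower, 1 was higher and 10 were not called, with a median log2 fold change of -0.28 and a range of -1.92 to 0.63. Over all tested genes, 17.5% were called lower and 18.4% higher, with a median of -0.0045. The groups did not overlap for 6 lower genes (25.2% of all genes) and 2 higher genes (25.7% of all genes). These 6 were not the same as the 6 called lower, since the groups overlapped for the called gene SLC6A9. SLC36A1, a proton-coupled carrier that moves small amino acids out of lysosomes, was lower, with 619, 544 and 641 counts in si-NC and 294, 267 and 377 in si-METTL16 (log2 fold change -0.91, adjusted p = 0.00103 by edgeR). Also lower were SLC38A10 (-0.66, adjusted p = 0.00031 by edgeR), the lysosomal glutamine carrier SLC38A7 (-0.62, adjusted p = 0.00373) and the glycine carrier SLC6A9 (-0.83, adjusted p = 0.035), which were named after their values were seen. SLC1A7, a glutamate carrier, was lower from few counts, 32, 33 and 42 against 17, 5 and 5 (-1.92, adjusted p = 0.0191 by edgeR), a call lost without si-NC replicate 3 or si-METTL16 replicates 2 or 3 (adjusted p = 0.0628, 0.0639 and 0.0561). SLC7A7, a partner of the SLC3A2 heavy chain like SLC7A6, was at the threshold (-0.90, adjusted p = 0.0499 by edgeR), and its call was lost in all 12 alternatives. The 1 higher carrier, SLC36A4, differed by 0.24 (adjusted p = 0.0258 by edgeR), and its call was lost without si-NC replicates 2 or 3 or si-METTL16 replicates 1 or 3 (adjusted p = 0.0836, 0.0801, 0.0635 and 0.0711). The remaining SLC43 genes, SLC43A2 (-0.28, adjusted p = 0.18 by edgeR) and SLC43A3 (0.14, adjusted p = 0.845), were not called. SLC7A8 had at most 2 counts per sample and was not tested.

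**Figure D4:**
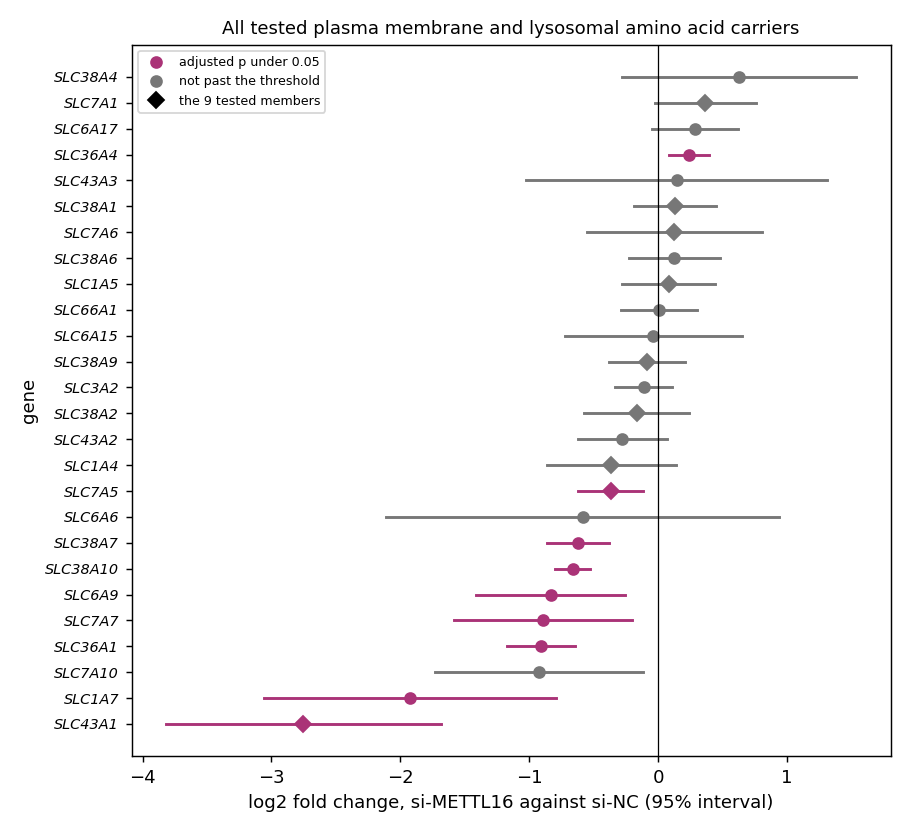
Log2 fold change of si-METTL16 against si-NC with its 95% interval for the 26 genes listed as amino acid carriers that could be tested, diamonds for the 9 described in full and circles for the other 17. Of the 26, 8 intervals in purple pass the threshold below 0 and 1 above it, and SLC43A1 lies farthest from 0 at -2.75.

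The carried amino acids are sensed at the lysosome, and all 36 genes listed for that machinery could be tested. Of these, 5 were higher, 6 lower and 25 not called, with a median log2 fold change of -0.09. Among all tested genes 18.4% were called higher and 17.5% lower. The lower genes included LAMTOR2 (-0.998, adjusted p = 0.00063 by edgeR) and LAMTOR1 (-0.49, adjusted p = 0.00911), parts of the Ragulator scaffold that holds the Rag GTPases at the lysosome. TSC1, part of the complex that restrains mTORC1, was also lower (-0.65, adjusted p = 0.00569 by edgeR). FNIP2 and FNIP1, partners of folliculin, were higher (0.81 and 0.42, adjusted p = 0.0004 and 0.0326 by edgeR), and so was ITFG2 of the KICSTOR complex (0.76, adjusted p = 0.0354). The FNIP1 call was lost without si-NC replicates 2 or 3 or si-METTL16 replicate 1 (adjusted p = 0.0983, 0.0774 and 0.0805 by edgeR), and the ITFG2 call without si-NC replicates 1 or 3 or si-METTL16 replicates 1 or 2 (0.098, 0.0843, 0.108 and 0.0886).

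Of 20 enzymes that use or make the carried amino acids, 5 were higher, 4 lower and 11 not called, with a median log2 fold change of -0.01. For all tested genes the shares called were 18.4% higher and 17.5% lower. GLUD1, which takes glutamate on to the citric acid cycle, was higher by 0.39 (adjusted p = 0.0016 by edgeR), and BCKDHA, which breaks down branched-chain amino acids, by 0.71 (adjusted p = 0.00177). ASS1, an enzyme of arginine synthesis, was lower, with 680, 316 and 420 counts in si-NC and 112, 117 and 119 in si-METTL16 (-1.98, adjusted p = 0.00192 by edgeR). Lower too were the glutamine synthetase gene GLUL (-0.89, adjusted p = 0.0153 by edgeR), at low counts, and BCAT2, a branched-chain transaminase (-0.39, adjusted p = 0.0132). The GLUL call was lost without si-NC replicate 3 or si-METTL16 replicate 1 (adjusted p = 0.0595 and 0.0531 by edgeR).

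Of 20 genes of the ATF4 response, the programme that cells turn on when amino acids are short, 4 were lower, 1 higher and 15 not called, with a median log2 fold change of -0.22. The shares of all tested genes called lower and higher were 17.5% and 18.4%. For ATF4 itself the log2 fold change was 0.09 (adjusted p = 0.457 by edgeR), and for ASNS, the asparagine synthetase gene often used to read out the response, it was -0.55 (adjusted p = 0.187). CHAC1, which degrades glutathione, was lower by the most (-2.21, adjusted p = 0.00199 by edgeR), followed by VLDLR (-0.89, adjusted p = 0.0146) and PSPH, the last enzyme of serine synthesis (-0.82, adjusted p = 0.00404). The higher gene was ALDH18A1, an enzyme of proline synthesis (0.20, adjusted p = 0.0409 by edgeR), whose call was lost when any 1 of the 6 samples was left out (adjusted p = 0.0651 to 0.136).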

How the data were processed

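RNA-seq was analysed in 6 PANC-1 samples, 3 si-NC and 3 si-METTL16. The table deposited by the authors holds raw read counts and FPKM per gene with coordinates on GRCh38. The submitters' processing notes name HISAT2 2.0.4 and StringTie 1.3.0; the counter, the annotation and strand use are not given in the sources used here. FPKM as deposited were used for levels. Counts were filtered with filterByExpr (minimum count 10, minimum total 15), scaled by TMM (factors 0.987 to 1.01) and tested with edgeR 4.0.16 in R 4.3.3 by the quasi-likelihood test, with Benjamini-Hochberg adjustment over 15089 genes. The study used limma, which was run as an alternative (limma 3.58.1, on voom values and on log2 of FPKM plus 1 or 0.1), beside DESeq2 1.42.0. Total counts were 15725298 to 18054436 per sample. Replicates differed by more than sampling noise (lowest chi-square per degree of freedom 15.9 within groups), and p-values measure only the spread between these samples. Members and gene lists were chosen with earlier results of these data known. Besides the 10 members, the text names up to 3 called genes per direction from each list, by size of change. Some genes of the lists are counted but not reported here by name. Coordinates of 6 of the 10 members equal those of GENCODE v44. Promoters are from RefSeq (GRCh38.p14). The alternatives are the settings given in the closing section; the scale by merged exon length was chosen after seeing the data.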

Additional observations from a re-analysis of the deposited data

How the results depend on the processing

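Members called lower numbered 1 with at least 10 counts in every sample and with limma on either FPKM scale. In these settings SLC43A1 was not tested and SLC7A5 stayed called. The number was also 1 without a filter on low genes and at adjusted p under 0.01, where the SLC7A5 call was lost. When 1 sample was left out, members called lower numbered 1 to 3 and members called higher 0 to 1. With 1 sample left out, the log2 fold change ran from -0.063 to 0.43 for SLC7A6 (below 0 without si-METTL16 replicate 1, at -0.05, or replicate 2), from -0.065 to 0.19 for SLC1A5 (below 0 without si-NC replicate 2 or, at -0.04, si-METTL16 replicate 1) and from -0.017 to 0.22 for SLC38A1 (below 0 without si-METTL16 replicate 1). With 1 sample left out, other carriers gave 0 to 1 higher and 3 to 5 lower, sensing genes 3 to 5 higher and 5 to 7 lower, enzymes 3 to 4 higher and 2 to 4 lower, ATF4 response genes 0 higher and 4 to 8 lower, and all genes 2187 to 2357 higher and 1972 to 2190 lower. At adjusted p under 0.01 there were 0 higher and 3 lower other carriers, 3 higher sensing genes, 3 higher and 1 lower enzymes, 0 higher ATF4 response genes, and 1665 higher and 1370 lower genes in all. Without a filter there were 0 higher other carriers, 3 higher sensing genes and 0 higher ATF4 response genes, and DESeq2's Wald test also gave 0 of the last. The cause of the shifts in these other lists and over all genes was not tested. For SLC1A4 to SLC1A5 and SLC38A1 to SLC38A2 the groups did not overlap, so leaving out 1 sample could not turn the direction of the ratio. With 1 sample left out, the difference in the SLC7A5 to SLC7A6 ratio ran from -0.78 to -0.11. In that ratio si-METTL16 replicate 3 lay above every si-NC sample.

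Over all tested genes, samples with the same replicate number shared little of their deviation (correlations 0.0253, 0.0371 and 0.0298). The mean correlation between samples with different numbers was -0.0154. For the 9 tested members, the median deviation was 0.147 in si-NC and 0.366 in si-METTL16 for replicate 1. It was -0.231 and -0.141 for replicate 2, and 0.0713 and -0.108 for replicate 3. Whether an equal number marks a pairing of samples was not tested. With the replicate number as a block, SLC7A5 had a log2 fold change of -0.38 and SLC43A1 -2.85 (edgeR adjusted p = 0.0165 and 0.0041), 2 members were lower and 0 higher, and ATF4 response genes gave 7 lower and 0 higher. Over all genes the block gave 2599 higher and 2414 lower, against 2780 and 2638 without it. Depth limits SLC7A2, which was not tested, and the size of the SLC43A1 change.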
